A study of Homo sapiens with 26 samples.

Results

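The genes of MHC class I antigen presentation were followed across KELLY neuroblastoma libraries. The 9 genes are the heavy chains HLA-B and HLA-C, the light chain B2M, the peptide transporter subunits TAP1 and TAP2, the loading chaperone TAPBP, the proteasome subunits PSMB8 and PSMB9, and the transcriptional activator NLRC5, out of 26485 genes in the deposited tables. They were chosen by name, with the higher level of TAP2 under both hairpins already known, so that values from those hairpin comparisons are given as a description and without a test.

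The RNA of KELLY cells, a human neuroblastoma cell line in which MYCN is amplified, was sequenced. A doxycycline-inducible lentiviral vector, F1HUTG, was present, either as the empty vector (EV) or with a short hairpin RNA against RUNX1T1, which encodes a transcriptional corepressor. The hairpins are named sh4 and shAMB in the labels. Each of these 3 lines received doxycycline or DMSO, the solvent control, for 72 h, in 3 replicates per group (18 libraries in 6 groups). The vector was thus present in every cell culture group, DMSO and EV groups included. A further 8 libraries came from KELLY tumors grown in mice, 4 labelled control (genotype WT, control food) and 4 labelled RUNX1T1 KO (doxycycline food). The methods of the study describe these as cells with an inducible hairpin, engrafted under the skin of female NOD SCID gamma mice, which lack T, B and NK cells. Since a hairpin does not delete a gene, the KO label is used here as a name and not as a genotype. For the tumors the study names the hairpin that it built on an Ambion siRNA sequence, while the labels tie neither shAMB nor sh4 to that description. They also do not say whether a line is 1 clone or a pool, and they name no separate cultures behind the replicates, so that p-values measure the spread between these libraries, which may be technical in cell culture.

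MHC class I molecules display peptides from inside the cell to cytotoxic T cells. The proteasome cuts proteins into peptides, the TAP1 and TAP2 subunits together pump them into the endoplasmic reticulum, tapasin (TAPBP) and its partners load them onto a heavy chain paired with B2M, and the finished complex travels to the cell surface. Interferon gamma induces most of these genes, including the immunoproteasome subunits PSMB8 and PSMB9, while NLRC5 acts at the promoters of class I genes. Neuroblastoma is known for low class I levels at the cell surface, in particular where MYCN is amplified.

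The promoters of TAP2, TAPBP and HLA-C, each higher with doxycycline in both hairpin lines, are shown with that of B2M, which was not. These are the 250 bases before the start of each gene (RefSeq, GRCh38.p14), 5′ to 3′ on the strand of the gene, which is minus for the first 3 and plus for B2M. They lie at chr6:32838740-32838989 (TAP2), chr6:33314079-33314328 (TAPBP), chr6:31272093-31272342 (HLA-C) and chr15:44711267-44711516 (B2M). Capitals mark matches, on either strand, to the letters searched below.
TAP2: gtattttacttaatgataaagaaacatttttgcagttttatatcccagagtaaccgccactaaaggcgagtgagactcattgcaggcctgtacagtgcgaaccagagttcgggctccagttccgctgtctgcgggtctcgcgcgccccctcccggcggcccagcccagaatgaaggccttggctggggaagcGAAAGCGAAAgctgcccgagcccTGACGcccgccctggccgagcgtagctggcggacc
TAPBP: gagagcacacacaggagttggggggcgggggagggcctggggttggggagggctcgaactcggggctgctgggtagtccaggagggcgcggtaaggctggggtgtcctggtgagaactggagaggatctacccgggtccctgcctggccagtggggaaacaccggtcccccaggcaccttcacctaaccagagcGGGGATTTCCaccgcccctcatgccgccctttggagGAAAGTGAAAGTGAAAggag
HLA-C: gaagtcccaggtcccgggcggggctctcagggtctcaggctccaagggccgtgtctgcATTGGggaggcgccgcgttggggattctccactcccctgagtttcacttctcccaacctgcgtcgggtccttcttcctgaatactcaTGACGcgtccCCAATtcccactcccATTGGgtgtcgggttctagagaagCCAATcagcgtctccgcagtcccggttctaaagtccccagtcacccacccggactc
B2M: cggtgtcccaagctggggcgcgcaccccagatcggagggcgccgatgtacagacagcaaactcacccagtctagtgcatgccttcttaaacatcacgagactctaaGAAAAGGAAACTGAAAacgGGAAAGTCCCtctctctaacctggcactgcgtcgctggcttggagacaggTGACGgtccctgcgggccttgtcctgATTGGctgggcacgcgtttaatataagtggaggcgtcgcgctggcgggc

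The letters searched were GAAANNGAAA (the core of an interferon-stimulated response element), TTCNNNGAA (gamma-activated sequence), GGGNNTTNCC (kappaB site), ATTGG (Y box), TGACG (X2 box, also found in cyclic AMP response elements) and CACGTG (E-box, the letters bound by MYC and MAX). Windows were found for 8 of the 9 genes, 10 windows in all, since PSMB8 and TAP1 have 2 each. NLRC5 was not in the table. The interferon-stimulated core was present before TAP2, TAPBP, B2M and TAP1, against 3.02% of the 35116 windows of all genes. It began 58 bases before the TAP2 start, and in TAPBP, B2M and 1 of the TAP1 windows it was present as 2 overlapping copies. The kappaB letters were found before TAPBP, B2M, HLA-B and TAP1 (5.07% of all windows), and the gamma-activated letters before PSMB8 and TAP1 (6.57%). The short Y box (32.0% of all windows) was found for HLA-C, HLA-B, B2M, TAP1 and PSMB9, and the X2 letters (21.2%) for TAP2, HLA-C, HLA-B, B2M, PSMB8 and PSMB9. The E-box letters were found in none of the 10 windows, against 6.34% of all windows. TAP2 and TAPBP therefore share the letters searched for the interferon-stimulated core but not the Y box letters, and HLA-C has the reverse. Other forms of these elements would be missed by this search. A match to letters is a description of the sequence and not a binding site.

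The culture libraries held 35115915 to 54736733 expected counts each and the tumor libraries 47346063 to 62378060. A gene at 0 counts therefore allows up to 0.0525 to 0.0865 CPM (counts relative to the TMM-adjusted library total) in culture libraries and 0.0467 to 0.0677 CPM in tumors (3 counts per library, counting error only). RUNX1T1 RNA, the target of the hairpins, did not pass the threshold in the doxycycline comparison of sh4 (log2 fold change −0.11, edgeR adjusted p 0.117), shAMB (0.06, adjusted p 0.378) or EV (−0.16, adjusted p 0.672), or in the tumors (−0.23, adjusted p 0.229), and directions below are between libraries so labelled. At the protein level the study reports less RUNX1T1 in KELLY cells when its hairpins were induced. It also reports loss of RUNX1T1 staining in KELLY tumors early in treatment. Protein was not measured in these libraries, so that the RNA values do not tell whether the target was depleted. Of 9 neuroblastoma markers all were detected in every group. Summed leukocyte markers (9 genes) were at 0.641 to 2.33 CPM in cell culture, 1.17 to 1.68 CPM in control and 1.83 to 2.77 CPM in KO xenografts. Within culture the sum was 0.641 to 0.776 CPM in shAMB with DMSO and 1.57 to 2.33 CPM with doxycycline, mostly from CD68. The DMSO and doxycycline ranges overlapped in EV and in sh4. CD3E was at 0 in every KO xenograft, PTPRC held at most 10 counts, and CD68 and CSF1R carried most of the sum. Fibroblast markers (6 genes) summed to 70.8 to 131 CPM in cell culture, 48.5 to 82.0 CPM in control and 74.9 to 116 CPM in KO xenografts. PDGFRB carried most of the xenograft sum, at 42.4 to 67.7 CPM in control and 65.9 to 104 CPM in KO. The ranges of COL1A1, COL3A1, LUM and DCN overlapped between these groups. Those of COL1A2 did not, with 0 to 3 counts in control and 4 to 19 in KO xenografts. In cell culture COL1A2 held at most 4 counts. Endothelial markers (4 genes) summed to 0.717 to 2.25 CPM in cell culture, 0.896 to 1.25 CPM in control and 0.558 to 1.83 CPM in KO xenografts. Among them KDR was lower in KO (0.0577 to 0.209 CPM) than in control xenografts (0.534 to 0.790 CPM), without overlap. PECAM1 reached 1.56 CPM in KO and 0.318 CPM in control, and its ranges overlapped, as did those of CDH5 and TEK. The fibroblast and endothelial sums were thus read in cultures of the cell line itself, though not every marker in them was. The part of these cell types, and of reads from the mouse host, in the results was not tested. In bulk RNA a smaller number of cells and less RNA per cell cannot be told apart.

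Levels were first placed on 1 scale per length (RPKM, the CPM divided by the transcript length in kilobases), since CPM cannot be compared between genes. In EV cells with DMSO, the light chain B2M was at 164 ± 8.20 RPKM (SD, n = 3). The next were TAPBP at 1.53 ± 0.201, HLA-C at 0.819 ± 0.220, TAP2 at 0.363 ± 0.0502, HLA-B at 0.174 ± 0.0727 and NLRC5 at 0.0895 ± 0.0289 RPKM, with no overlap between neighbours in this order. TAP1, PSMB8 and PSMB9 were at 0. The light chain was thus far above HLA-C and HLA-B, and the TAP2 transporter subunit was present where its partner TAP1 was not detected. With doxycycline the order of means changed in the shAMB line, where TAP2 (2.86 ± 0.275 RPKM) came before HLA-C (2.63 ± 0.319), with overlap. In the sh4 line the order of means was the same with DMSO and doxycycline. With doxycycline, HLA-C there (2.01 ± 0.672) overlapped both TAPBP (2.98 ± 0.536) and TAP2 (1.98 ± 0.250). TAP2 also stood beside HLA-C in the KO xenografts (1.58 ± 0.264 and 1.50 ± 0.266 RPKM, n = 4), which overlapped, and below it in the controls (0.209 ± 0.0439 and 1.06 ± 0.220). HLA-B and NLRC5 overlapped in 5 of the 8 groups. The heavy chains share sequence with each other and the genes of this region are annotated on several copies of the region in the genome (8 for TAP1, TAP2, PSMB8 and PSMB9, 7 for HLA-C, 6 for HLA-B and 5 for TAPBP), so that the level of each is uncertain.

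**Figure D1:**
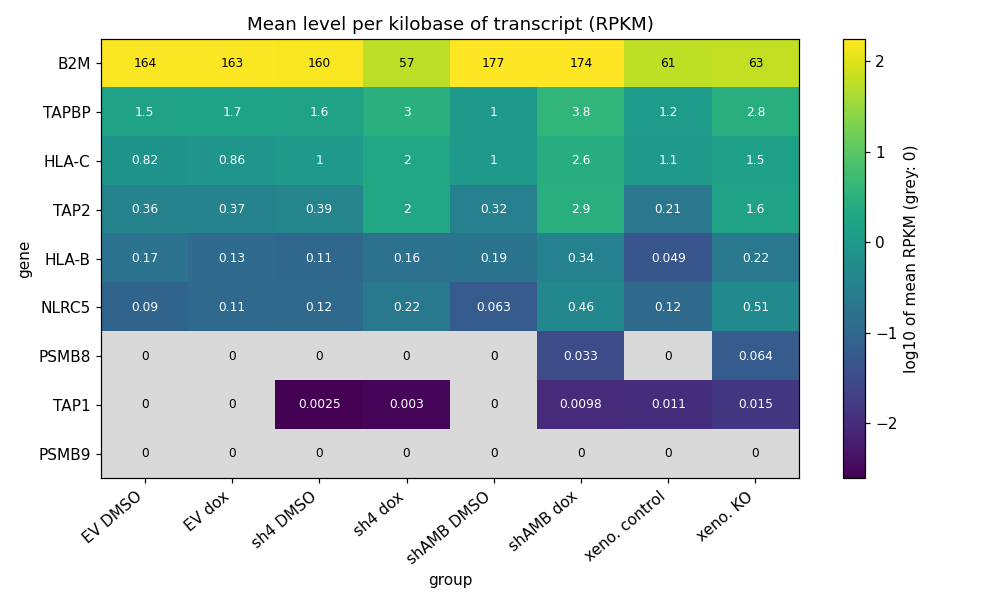
Mean RPKM of the 9 genes (rows) in the 8 groups (columns, n = 3 in culture and 4 in xenografts), coloured on a log10 scale with 0 in grey. B2M lies between 57.0 and 177 RPKM and PSMB9 at 0 in every group.

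TAP2, a transporter subunit, is the gene whose level under the hairpins chose the set. It lies on chromosome 6 at 32821831 to 32838739 (minus strand). The 3 EV libraries with DMSO held it at 1.39, 1.83 and 1.70 CPM, and those with doxycycline at 1.65, 1.86 and 1.57 CPM. The sh4 line held 2.02, 1.77 and 1.54 CPM with DMSO, and 7.96, 8.72 and 10.2 CPM once doxycycline was added. The shAMB line held 1.58, 1.43 and 1.39 CPM with DMSO, and 11.6, 13.4 and 13.9 CPM once doxycycline was added. Every hairpin library with doxycycline was thus above every other culture library, while the EV groups overlapped. The log2 fold change was 2.33 in sh4 (SE 0.133) and 3.14 in shAMB (SE 0.139), the values that chose this gene, and 0.05 in EV (SE 0.147, edgeR adjusted p 0.868). The 95% confidence interval in EV ran from −0.26 to 0.36. In the uninduced lines TAP2 was at log2 differences of 0.12 (sh4) and −0.16 (shAMB) from EV.

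The xenografts are libraries that the choice of TAP2 did not use, although its level there was also known beforehand. Control xenografts held TAP2 at 0.790, 0.994, 0.788 and 1.20 CPM and those labelled KO at 7.04, 7.62, 8.38 and 5.56 CPM. The groups did not overlap, and TAP2 rose 7.54-fold (log2 fold change 2.92, SE 0.213, edgeR adjusted p 8.0e-06, n = 4 each, higher in 4 of 4). Exons of another gene on the same strand cover 19.5% of the TAP2 exon sequence, and reads of both cannot be told apart there. The genes beside TAP2 were examined after these values were seen. Within 250 kb of its start the tables list 17 other genes that also have a promoter entry, and 2 of them passed the filter on low counts in the xenografts. Genes without such an entry were not examined. LOC100294145, a non-coding gene, fell by 0.30 on the log2 scale (adjusted p 0.0261), and BRD2, a chromatin reader, had a log2 fold change of 0.18 (adjusted p 0.106). The nearest coding neighbours on either side, HLA-DOB and PSMB8, had at most 1 and 12 counts.

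**Figure D2:**
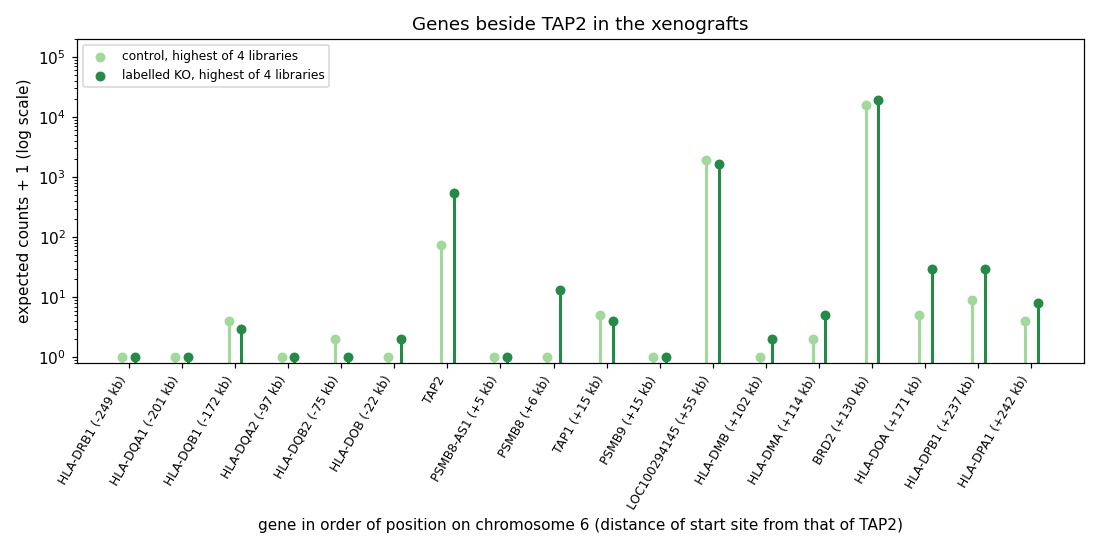
Highest expected count plus 1 (log axis) among the 4 control (light) and 4 KO (dark) xenografts, for TAP2 and the 17 genes with a promoter entry within 250 kb, in chromosomal order with the distance of each start in kb. TAP2 goes from 72 to 538 counts, whereas LOC100294145 and BRD2 are within 1.5 times of each other between groups.

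TAP1, the partner of TAP2 in the transporter, was at the limit of detection. It held 0 to 4 counts in every one of the 26 libraries, with 0, 2, 0 and 4 counts in the control xenografts and 2, 3, 2 and 2 in those labelled KO. At this depth no difference was detectable, and a fold is not given because the groups lie at or near the 3-count limit. A gene on the opposite strand covers 14.2% of its exon sequence.

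TAPBP (tapasin), which bridges the transporter to the heavy chain, was higher in all hairpin groups with doxycycline. In EV it was at 4.49, 5.58 and 5.79 CPM with DMSO and 5.11, 5.89 and 6.20 CPM with doxycycline, and the groups overlapped (log2 fold change 0.12, SE 0.162, edgeR adjusted p 0.740). In sh4 it was at 5.94, 5.86 and 4.53 CPM with DMSO and 8.90, 9.69 and 12.4 CPM with doxycycline. In shAMB it was at 4.16, 2.91 and 3.74 CPM with DMSO and 12.7, 12.4 and 14.8 CPM with doxycycline. Neither hairpin line had overlapping groups, with log2 fold changes of 0.92 (SE 0.157) and 1.88 (SE 0.163). Before induction the shAMB libraries were all below the EV libraries (log2 difference −0.55, SE 0.166), which did not pass the threshold (adjusted p 0.142). In the xenografts TAPBP was at 3.01, 4.52, 3.94 and 4.62 CPM in controls and 10.7, 10.6, 9.53 and 7.79 CPM in those labelled KO. It rose 2.40-fold there (log2 fold change 1.26, SE 0.179, edgeR adjusted p 0.000312), with no overlap. A gene on the opposite strand covers 21.0% of its exon sequence.

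NLRC5, the class I activator, stood at few reads in every control group. In cell culture it was at 0.707, 0.378 and 0.721 CPM in EV with DMSO and 0.651, 0.931 and 0.674 CPM with doxycycline (log2 fold change 0.32, SE 0.356, adjusted p 0.698). In shAMB it went from 0.394, 0.338 and 0.535 CPM with DMSO to 2.42, 3.20 and 3.65 CPM with doxycycline, without overlap (log2 fold change 2.87, SE 0.333). In sh4 it was at 1.13, 0.531 and 0.686 CPM with DMSO and 0.968, 1.52 and 2.01 CPM with doxycycline, and the groups overlapped (0.92, SE 0.310). In the xenografts NLRC5 was at 0.470, 0.632, 1.09 and 1.04 CPM in controls and 3.68, 4.13, 4.05 and 1.86 CPM in those labelled KO, the last of which was the KO library with the lowest TAP2, TAPBP and HLA-C as well. It rose 4.21-fold (log2 fold change 2.07, SE 0.332, edgeR adjusted p 0.000657, higher in 4 of 4), or by a log2 fold change of 1.18 in the deposited TPM (exact two-sided permutation p 0.0286, the smallest that 4 against 4 allows), where the pseudocount of 0.1 lowers the change of weak genes.

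The heavy chains present peptide at the cell surface and are given one by one. HLA-C was at 1.12, 1.08 and 1.70 CPM in EV with DMSO and 1.30, 1.38 and 1.40 CPM with doxycycline (log2 fold change 0.08, SE 0.254, adjusted p 0.889). In sh4 it was at 1.81, 1.73 and 1.27 CPM with DMSO and 2.50, 2.65 and 4.42 CPM with doxycycline. In shAMB it was at 1.31, 1.48 and 2.01 CPM with DMSO and 3.78, 4.74 and 3.97 CPM with doxycycline. Doxycycline and DMSO libraries were apart with both hairpins (0.98, SE 0.229, and 1.39, SE 0.231). In the xenografts HLA-C was at 1.39, 1.60, 2.19 and 1.54 CPM in controls and 2.67, 2.59, 2.49 and 1.75 CPM in those labelled KO, which overlapped. The log2 fold change of 0.50 (SE 0.218) did not pass the threshold (edgeR adjusted p 0.0916), and did without KO replicate 4 (0.61, adjusted p 0.0431).

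HLA-B was weaker than HLA-C, with 6 to 35 counts in cell culture. With doxycycline it was at 0.358, 0.455 and 0.808 CPM in shAMB, above the 0.246, 0.286 and 0.348 CPM with DMSO (0.87, SE 0.337), while its groups overlapped in sh4 (0.56, SE 0.396) and in EV (−0.43, SE 0.411, adjusted p 0.676). In the xenografts HLA-B had 4, 2, 10 and 0 counts in controls and 18, 21, 20 and 20 in those labelled KO (log2 fold change 2.12, SE 0.606, adjusted p 0.0167, and 3.01 without control replicate 3). It passed the filter on low counts through the KO group alone, reaching 0.185 CPM in 0 of 4 control and 4 of 4 KO libraries, so that a difference was built in. The non-classical chain HLA-E held at most 6 counts in any xenograft.

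B2M, the light chain shared by all class I molecules, was lower with doxycycline in the sh4 line, while its groups overlapped in the other lines and in the tumors. It was at 147, 162 and 166 CPM in sh4 with DMSO and 61.3, 61.0 and 46.6 CPM with doxycycline, and these groups did not overlap (log2 fold change −1.49, SE 0.0942). In shAMB it was at 159, 185 and 179 CPM with DMSO and 184, 176 and 157 CPM with doxycycline, with overlap (−0.02, SE 0.0913). In EV it was at 163, 170 and 154 CPM and 159, 161 and 164 CPM (−0.01, SE 0.0916, edgeR adjusted p 0.973). In the xenografts it was at 64.3, 47.4, 66.5 and 61.7 CPM in controls and 52.5, 67.7, 69.0 and 60.1 CPM in those labelled KO, a log2 fold change of 0.06 (SE 0.125, 95% confidence interval −0.22 to 0.33, adjusted p 0.757). In CPM the xenograft levels of both groups resembled in size those of sh4 with doxycycline. In the deposited TPM they were lower, at 18.7 to 43.4 in control and 27.2 to 56.5 in KO xenografts, against 126 to 166. The tables were normalised separately and no test was made across them, so that no likeness is read.

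PSMB8 and PSMB9, which replace constitutive subunits in the immunoproteasome, were almost absent. PSMB9 had 0 counts in all 26 libraries. PSMB8 had 0 counts in every EV, sh4 and shAMB DMSO library, 0, 1 and 5 counts in shAMB with doxycycline, and 0 in all 4 control xenografts against 2, 12, 4 and 2 counts in those labelled KO. Neither was tested because neither passed the filter on low counts.

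**Figure D3:**
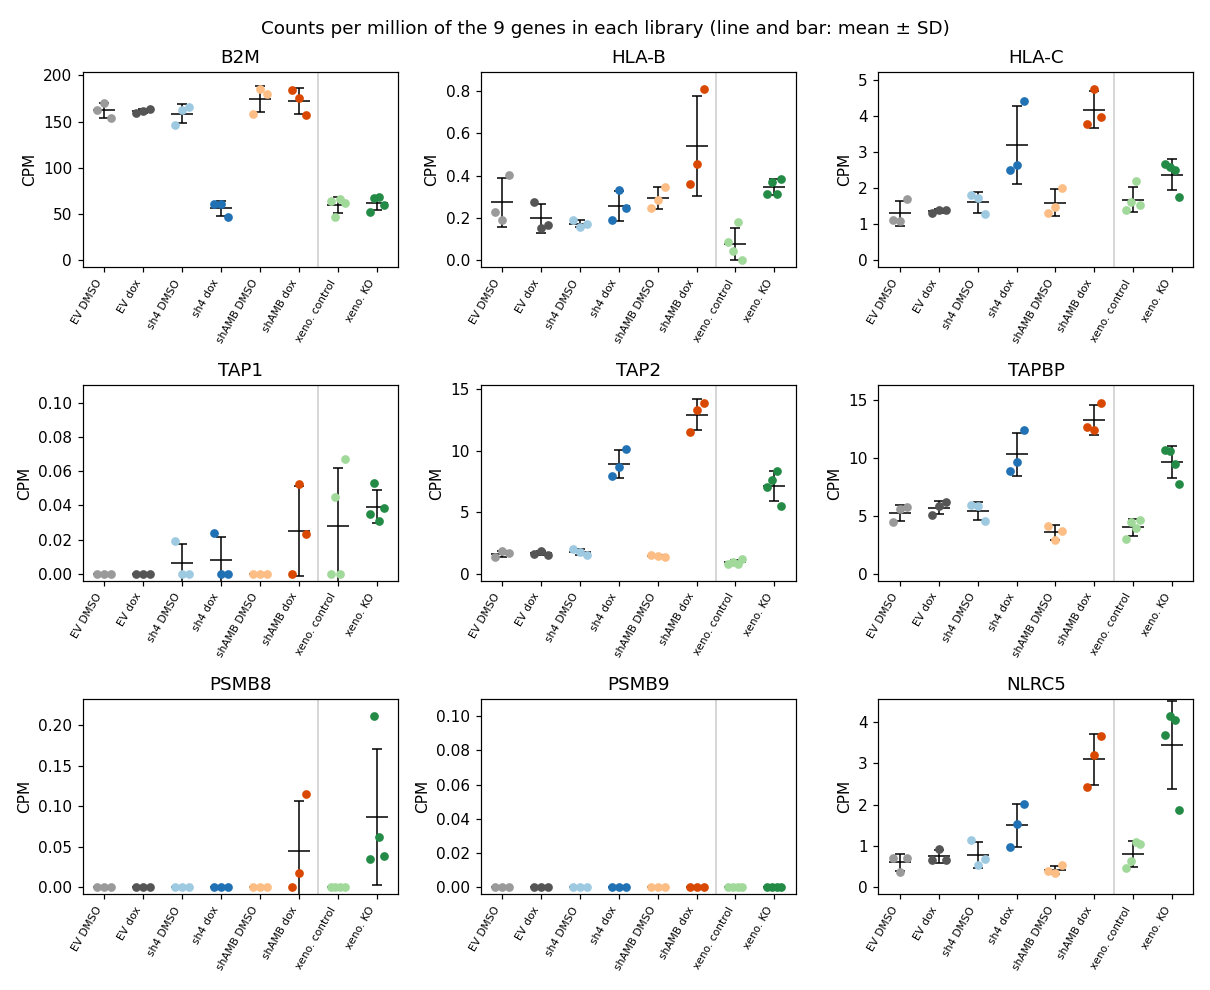
CPM of each of the 9 genes (panels, each from 0) in every library (points) with mean ± SD of the group (line and bar), n = 3 in culture and 4 in xenografts (right of the grey line). TAP2 lies at 7.96 to 13.9 CPM in the hairpin lines with doxycycline and at 1.39 to 2.02 CPM in the other culture groups, and B2M is low in sh4 with doxycycline.

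Counted together, 6 of the 9 genes passed the filter in both tables, HLA-B in the xenografts through 1 group alone. HLA-B is therefore left out of the xenograft counts, a choice made after seeing the data. Of the other 5 tested there, 3 rose (TAP2, TAPBP and NLRC5) and 0 fell, against 41.1% of all genes called in either direction and 21.2% called higher. The same 3 had groups without overlap, against 36.7% of all genes. The median log2 fold change of the 5 was 1.26, against 0.02 for all genes tested. TAP2, which chose the set and whose level there was known beforehand, is part of each of these values. They are therefore a description and not support for the set. Apart from TAP2, TAPBP and NLRC5 rose, while HLA-C and B2M did not pass the threshold. Summed leukocyte markers were also higher in the KO tumors, and in shAMB cultures with doxycycline (ranges above). Their part in these counts was not tested. In the EV line 0 of 6 passed the threshold by edgeR (0 also at an unadjusted p under 0.05 and 0 by DESeq2), against 0.0939% of all genes, and 0 had groups without overlap, against 14.1%. In sh4, 4 of the 6 had groups without overlap (41.3% of all genes), and in shAMB 5 (73.4%). The hairpin counts belong to the comparisons that chose the genes, and nothing is read from them. Between the DMSO groups, 0 of 6 differed in sh4 against EV (1.12% of all genes, 0 at an unadjusted p under 0.05, 0 by DESeq2) and 0 in shAMB against EV (1.52%, 1 at an unadjusted p under 0.05, namely TAPBP, 0 by DESeq2). The 3 culture comparisons with doxycycline use different DMSO libraries, whereas the comparisons of DMSO groups share those of EV.

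**Figure D4:**
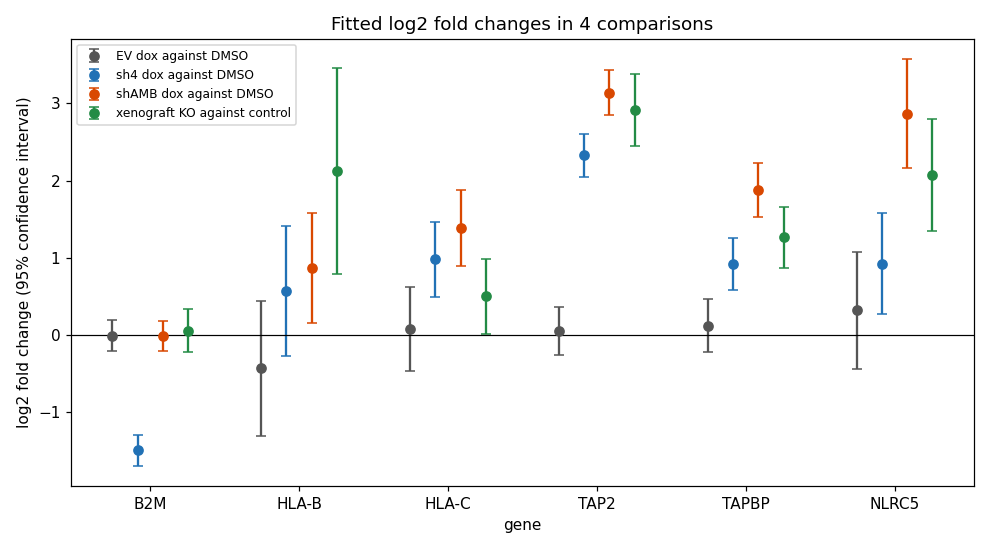
Fitted log2 fold change with its 95% confidence interval for 6 of the 9 genes (x axis) in the EV, sh4, shAMB and xenograft comparisons (colours). TAP2 is at 2.33 to 3.14 in the hairpin and xenograft comparisons and at 0.05 in EV, and B2M is below 0 in sh4, at −1.49.

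The other genes of the pathway, 62 in 6 lists, were then counted. In the xenografts 9 rose and 11 fell of the 42 tested, or 47.6%, against 41.1% of all genes, with a median log2 fold change of −0.05. Without KO replicate 2 the number was 13, and the count of all genes called also fell, from 6555 to 4961. In the EV line 0 of 43 passed the threshold (0 at an unadjusted p under 0.05, 0 by DESeq2), against 0.0939% of all genes. In sh4 10 were higher and 5 lower (34.9% called, against 40.9% of all genes), and in shAMB 16 were higher and 15 lower (72.1%, against 66.0%). Nothing is read from these hairpin counts either.

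Of the loading and trimming genes, 2 rose and 2 fell of 6 tested in the xenografts, where 41.1% of all genes were called. That share is the background of each list count that follows. The trimming peptidase ERAP2 went from 0.337 ± 0.0645 to 1.79 ± 0.408 CPM (SD, n = 4 each) and rose 5.29-fold (log2 fold change 2.40, SE 0.273, edgeR adjusted p 8.1e-05), and was 1.67 and 3.29 on the log2 scale in sh4 and shAMB. Its partner ERAP1 was at −0.15 (adjusted p 0.238). The tapasin relative TAPBPL rose by 0.84 (adjusted p 0.0407), while the chaperones calreticulin (CALR, −0.89, adjusted p 0.000219) and calnexin (CANX, −0.64, adjusted p 0.00190) fell. The other 2 of the 6, ERAP1 and PDIA3, did not pass the threshold, and no common direction is read from this list.

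Among proteasome partners, 1 rose and 3 fell of 7 tested (41.1% of all genes called). PSMB5, the constitutive subunit that PSMB8 replaces, fell from 179 ± 18.7 to 78.7 ± 7.43 CPM (log2 fold change −1.18, SE 0.102, adjusted p 1.9e-05), with −0.15 in sh4 and −1.17 in shAMB. The activator subunit PSME1 rose by 0.79 (adjusted p 0.00177), and PSMB10, the other inducible subunit, was at 0.49 (adjusted p 0.0620) with no overlap between groups.

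Among 15 regulators tested, 3 rose and 4 fell, a share near the 41.1% of all genes. IRF1, an interferon-induced factor that activates class I genes, rose from 2.00 ± 0.279 to 4.90 ± 0.218 CPM (log2 fold change 1.29, SE 0.164, adjusted p 0.000157), and was at −0.31 in sh4 and 1.35 in shAMB. IRF2 rose by 0.87 (adjusted p 0.000535) and RFX5, a subunit of the X box complex, by 0.23 (adjusted p 0.0479). RFXANK, another subunit of that complex, fell by 1.03 on the log2 scale (adjusted p 0.0124) with overlapping groups. EZH2, the PRC2 methyltransferase, fell by 0.32 (adjusted p 0.0156), with 7142 to 10916 expected counts in control and 7864 to 9517 in KO xenografts. The expected counts of the listed PRC2 genes EED (1247 to 1837 and 1732 to 2248) and SUZ12 (6565 to 8347 and 6917 to 10562) overlapped between these groups. These counts are not scaled for depth, and no direction is read from them. Nothing is read about PRC2 as a whole. CIITA, the class II activator, held 0 counts in all control xenografts and 1 to 5 in those labelled KO.

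Of the interferon signalling genes, 3 rose and 1 fell of 10 tested, a share near the 41.1% of all genes. The receptor kinases JAK1 (log2 fold change 0.52, edgeR adjusted p 0.00191) and JAK2 (0.61, adjusted p 0.00773) rose. STAT2 fell by 0.87 on the log2 scale (adjusted p 0.000316). IFNG had 0 counts in every library. IFNB1 had at most 1 count in culture, and 0 to 3 in control and 4 to 7 in KO xenografts. These groups did not overlap but lie near the 3-count limit.

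Class II genes were near absent in cell culture, with at most 3 counts in every culture library for 9 of 11. In the xenografts HLA-DOA held 0 to 4 counts in controls and 9 to 28 in those labelled KO, without overlap, and HLA-DPB1 held 0 to 8 and 0 to 28. Neither passed the filter on low counts. The invariant chain CD74, the one class II gene tested, fell from 13.0 ± 2.46 to 3.92 ± 1.84 CPM in the xenografts (log2 fold change −1.73, SE 0.291, adjusted p 0.000866). Of the other heavy chains, 0 of 3 tested passed the threshold in the xenografts (0 at an unadjusted p under 0.05, 0 by DESeq2).

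**Figure D5:**
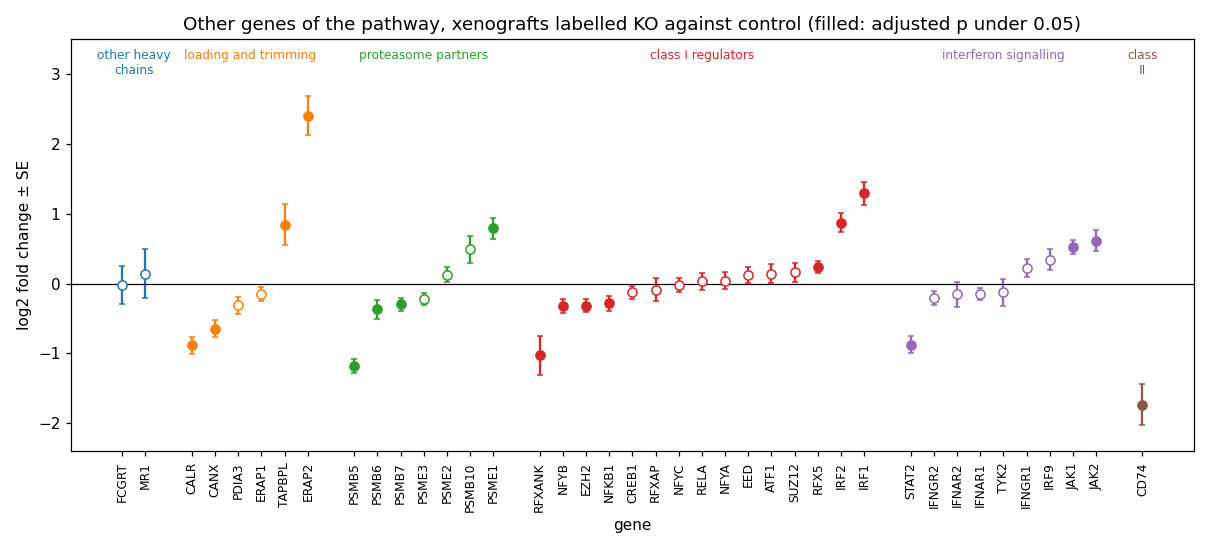
Log2 fold change ± SE of other pathway genes tested in the xenografts labelled KO against control (n = 4 each), grouped by list, filled where the edgeR adjusted p was under 0.05. ERAP2 lies highest at 2.40 and CD74 lowest at −1.73, and both directions occur in most lists.

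Over the 18 culture libraries the genes whose log2 CPM followed TAP2 most closely were PER2, a circadian clock repressor (Pearson r 0.989), ITPR1, a calcium release channel (0.987), MYCNOS, the antisense gene at MYCN (0.987), VWF (0.987) and FOXJ2 (0.986), and the most opposed was ICA1 (−0.995). Of the 9 genes, TAPBP had an r of 0.937 with TAP2, HLA-C 0.925, NLRC5 0.894, HLA-B 0.555 and B2M −0.50. These are descriptions over 18 libraries that share the same group differences. In the xenografts PER2 rose by 0.55 (adjusted p 0.000540), MYCNOS by 1.64 (4.4e-05) and FOXJ2 by 0.65 (0.0151), VWF was at 0.34 (0.209), while ITPR1 fell by 0.43 (0.00156) and ICA1 by 0.95 (8.2e-05). The deposited counting does not state strand, so that MYCNOS and MYCN reads may be mixed.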

How the data were processed

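RNA was sequenced from 26 libraries in 8 groups, which were assigned from the labels alone. Library preparation used a stranded total RNA kit per the labels, which also name polyA RNA. The submitters' processing notes name STAR, SAMtools, RSEM and hg38. The authors deposited RSEM expected counts, which need not be whole, and TPM. Culture columns marked Neg were taken as DMSO and those marked Pos as doxycycline, from these words alone, and directions in culture rest on this. Annotation version and strand setting are not given in the sources used here.

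Expected counts were rounded, filtered (filterByExpr) and scaled by TMM in edgeR 4.0.16 (R 4.3.3). The quasi-likelihood F test (two-sided) with Benjamini-Hochberg adjustment was run over 14905 genes in culture (18 libraries, 1 fit) and 15960 in the xenografts (8 libraries), with a threshold of 0.05. CPM use TMM-scaled totals, and RPKM divide these by the deposited gene length. The script was tested on simulated data. Members and lists were chosen with earlier results of these data known. Named are all members, list genes with an adjusted p under 0.05 and a log2 change of at least 1 in the xenografts, 11 fixed genes, and the genes most like TAP2. IRF2, EZH2, EED, SUZ12, CANX, TAPBPL, PDIA3, PSME1, JAK1, JAK2, STAT2, IFNG, IFNB1, HLA-DOA and HLA-DPB1 were named after their values were seen. Alternatives were RLE and upper quartile scaling, no filter, DESeq2 1.42.0, the replicate number as a block, short genes left out, each library left out, the 2 groups alone and, for the members, TPM with a pseudocount of 0.1. Results for a few listed genes are not reported here.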

Additional observations from a re-analysis of the deposited data

Results flagged for a closer look

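In the xenografts labelled KO, 1 of the 4 libraries stood apart for PSMB8, at 0.211 CPM (12 counts), against 0.0349 to 0.0623 CPM (2 to 4 counts) in the other 3. The gap to its neighbour was above the 95% limit of Dixon's test. Over 15 groups of 4 examined, about 1 in 20 is reached by chance, and the value rests on few counts.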

How the results depend on the processing

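Of 36 pairs of a gene and a comparison, 9 changed sign in at least 1 setting (22 of 495 settings), and none of these passed the threshold. In the xenografts TAP2, TAPBP and NLRC5 kept their calls in all 15 alternatives, with log2 fold changes of 2.47 to 3.05, 1.11 to 1.36 and 1.18 to 2.27. HLA-B was at 0.79 to 3.01, and nothing is read from its calls because it passed the filter through the KO group alone. With HLA-B included, the number of members called there was 4, and 4 to 5 without 1 library. With HLA-B left out, an alternative added after seeing the data, it was 3.

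Replicate numbers are shared between groups, but deviations of same-numbered libraries had correlations from −0.60 to 0.37 and did not pair them. With the replicate block the number of other pathway genes called in the xenografts was 13 instead of 20, the number of members called stayed at 4, and no other count moved by over 1.5 times. The count of all genes called there also fell with the block, from 6555 to 4929. Without 1 library the number of other pathway genes called was 13 to 22, and that of all genes 4961 to 7078. With the 2 groups alone in the fit, the count of all genes called was 6 in EV (14 with all libraries), 3727 in sh4 (6091), 23 in sh4 against EV DMSO (167) and 85 in shAMB against EV DMSO (227), and DESeq2 gave 344 for sh4 against EV DMSO. Without 1 library these counts were 7 to 14, 75 to 269 and 125 to 188 for EV, sh4 against EV DMSO and shAMB against EV DMSO. The cause was not tested. TAP1, PSMB8 and PSMB9, at or near 0 counts, are limited by depth.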
